A study of Mus musculus with 12 samples.

Results

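The comparison described here set the infrarenal abdominal aorta of mice lacking CCN2 in smooth muscle (CCN2SMCΔ + Ang II, labelled CSA, mice 01, 02 and 03) against that of floxed controls (CCN2fl/fl + Ang II, labelled CFA, mice 71, 72 and 74). These are 6 of the 12 libraries of the series, and they were taken by the names of their columns in the table of FPKM (fragments per kilobase of exon, scaled to library depth). The other 6 libraries were the saline counterparts, CCN2SMCΔ + Saline (CSS) and CCN2fl/fl + Saline (CFS), with 3 male mice in each of the 4 groups. All 12 mice carried floxed Ccn2 alleles and received 5 doses of tamoxifen from 8 weeks of age, followed by 2 weeks without drug and then 7 days of saline or of Ang II (angiotensin II) at 500 ng/kg/min from an osmotic pump. Deletion was driven by Myh11-Cre-ERT2, a tamoxifen-activated recombinase under the promoter of smooth muscle myosin heavy chain. The floxed controls had no Cre, so the effect of the recombinase and that of the deletion cannot be told apart. The mice were not made hypercholesterolemic. Each library was made from poly(A) RNA of whole aortic tissue, so adventitia, fat and blood in the sample were read together with the media. Of 55092 features in the table, 14676 reached 1 FPKM in 3 or more of the 12 libraries and were tested.

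CCN2, also called connective tissue growth factor, is a secreted matricellular protein that binds integrins, growth factors and matrix and is a well-known target of TGF-β and of YAP. The media of the aorta is built of layers of smooth muscle cells and elastic lamellae, and contractile smooth muscle is defined by a program of filament, channel and adhesion genes that serum response factor and its partner myocardin drive. Ang II raises blood pressure and acts on smooth muscle, endothelium and leukocytes. In aneurysm of the abdominal aorta the wall loses smooth muscle and elastin and fills with leukocytes and proteases. The comparison asks which genes differed between deleted and control aortas when both received Ang II.

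Ccn2 itself, on chromosome 10 at 24595442-24598683 of mouse build mm10, was at 1013, 1105 and 564 FPKM in CFA mice 71, 72 and 74 and at 255, 331 and 399 FPKM in CSA mice 01, 02 and 03. The groups did not overlap, and the log2 difference was -1.41 (SE 0.34, adjusted p = 0.00622, limma). That is short of the limit of 1.5 used for a call, and the two-sided exact permutation test over 3 against 3 mice gave p = 0.1, the smallest it can give. Without CSA mouse 03 the log2 difference was -1.56 (adjusted p = 0.00626), past that limit. Smooth muscle genes of the labelled tissue were abundant in every CFA library, as the values of Acta2 given below show. Libraries held 14558580 to 23107807 fragments on features. The shallowest was CSA mouse 03, which also stood apart from CSA mice 01 and 02. The feature Gm23935 (named after its values were seen) was at 8794, 12813 and 214 FPKM in the 3 CSA mice, and the array weight that limma gave to CSA mouse 03 was 0.068, against 0.619 to 2.503 for the other 11 libraries. Among the CFA mice, mouse 72 was the highest in most leukocyte and MHC class II genes. Skeletal muscle markers were high only in CFS mouse 68 and CSS mouse 55, both of them saline mice. Values are given below in the order of mice 71, 72 and 74 for CFA and 01, 02 and 03 for CSA, and a log2 difference is CSA minus CFA on log2(FPKM + 0.1), which understates the change of genes at low levels.

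Under Ang II, 2528 of the 14676 genes tested (17.2%) were called, meaning an adjusted p under 0.05 and a log2 difference over 1.5 in size. Of these, 1314 (8.95%) were higher in CSA and 1214 (8.27%) were lower. Every count of called genes in a list below is to be read beside these shares. The median log2 difference of all genes tested was -0.04. Genes called higher held 1.83%, 2.83% and 1.99% of all FPKM in CFA, against 14.6%, 13.5% and 15.5% in CSA. Genes called lower held 18.7%, 16.7% and 17.3% in CFA, against 3.83%, 4% and 3.33% in CSA. These genes were chosen for that difference, so their shares in the Ang II libraries are a description. In the saline libraries, which did not enter that contrast, the same higher genes held 1.5% to 2.1% and the same lower genes 19.3% to 21.2%, with CSS and CFS overlapping. Between CSS and CFS only 2 genes were called by limma and 924 had an unadjusted p under 0.05. The test of the difference between the 2 genotype effects (the interaction of genotype and treatment) called 2231 genes (15.2%), of which 1158 (7.89%) had a higher and 1073 (7.31%) a lower genotype difference under Ang II than under saline, and 1974 of the 2231 were among the 2528.

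**Figure D1:**
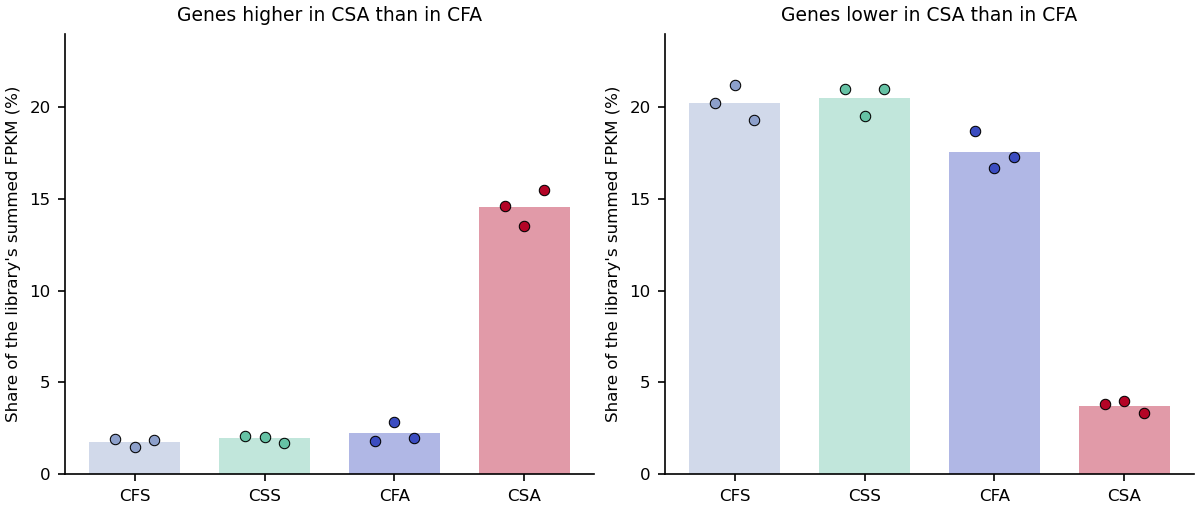
Share of each library's summed FPKM, in percent, on the genes called higher (left) and lower (right) in CSA against CFA, with 1 point a mouse and bars at the mean of 3 mice. Higher genes held 13.5% to 15.5% in the 3 CSA mice and at most 2.83% in the 9 others, and lower genes held 3.33% to 4% against at least 16.7%.

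Smooth muscle markers fell as a block. All 12 of the smooth muscle markers were tested and all 12 were called lower, with a median log2 difference of -2.99 (range -4.17 to -1.88), against -0.10 under saline. Together they summed to 8309.8, 9041 and 6097 FPKM in CFA against 973, 1036 and 875 FPKM in CSA. Myh11, the smooth muscle myosin heavy chain, was at 733, 695 and 725 FPKM in the CFA mice and 35.4, 37.7 and 46.5 FPKM in the CSA mice (log2 difference -4.17, SE 0.14, adjusted p = 8.05e-08). Itga8, the α8 integrin chain that smooth muscle uses to bind matrix, was at 274, 239 and 276 FPKM against 15.6, 16.1 and 21.02 FPKM (log2 difference -3.90). Acta2, smooth muscle α-actin, was at 5777, 6604 and 3881 FPKM against 732, 774 and 683 FPKM (log2 difference -2.86). In none of these genes did the 2 groups overlap. Tagln, another filament marker, is covered here by a feature that shares 67.9% of its exonic bases with other genes and was at only 20.8, 20.3 and 14.6 FPKM in CFA, so its level is uncertain. In whole tissue, fewer cells of a type and less RNA per cell cannot be told apart.

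Other filament and smooth muscle genes followed among the most abundant genes called lower. Myl9, the regulatory light chain of smooth muscle myosin, was at 2443, 2358 and 1972 FPKM in the CFA mice and 216, 256 and 158 FPKM in the CSA mice. Tpm2, a tropomyosin, was at 485, 516 and 391 against 66.5, 80.6 and 58.6 FPKM. Csrp1, a LIM protein of the contractile apparatus, was at 850.4, 996 and 608 against 133, 163 and 97.9 FPKM. All 3 were lower in every CSA mouse than in every CFA mouse, with log2 differences of -3.45, -2.76 and -2.64. Pcp4l1 and Thsd4, which carry no smooth muscle label in the lists used, were called with adjusted p-values of 8.05e-08 and 8.05e-08. Pcp4l1 was at 89.1, 74.6 and 75.1 against 3.31, 3.89 and 2.77 FPKM, and Thsd4, which encodes an ADAMTS-like protein of microfibrils, was at 32.7, 34.6 and 31.96 against 1.92, 1.46 and 1.31 FPKM. Carmn, the long noncoding RNA of the Mir143 and Mir145 locus (named after its values were seen), was at 47.3, 26.4 and 30.1 against 4.08, 4.58 and 1.44 FPKM (log2 difference -3.43). Its hosted miRNA features are very short, and poly(A) libraries hold little of their mature form, so their values are not described.

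Among the regulators of this program, 4 of 12 were called lower and none higher, with a median of -1.03, and 2 were called without CSA mouse 03. Myocd, which encodes myocardin, was at 14, 30.9 and 15.99 FPKM in the CFA mice and 2.05, 2.66 and 3.67 FPKM in the CSA mice (log2 difference -2.76, SE 0.33, adjusted p = 6.77e-05). Srf, serum response factor, was at 45.6, 44.5 and 35.9 against 22.01, 19.9 and 6.2 FPKM. Its log2 difference of -1.57 became -1.0 without CSA mouse 03, which ended the call. Csrp2 lost its call in the same way (-1.61 with and -1.47 without that mouse), and also without CFA mouse 72 (-1.34). Mrtfa, the actin-sensing partner of serum response factor, was at 6.45, 8.96 and 6.67 against 11.9, 11.03 and 4.78 FPKM, groups that overlap. In the 250 bases before the start site, a CArG box (CC, 6 bases of A or T, then GG), the serum response factor motif, was present in 159 of 12975 promoter windows of genes tested (1.23%), in 30 of 1071 windows of genes called lower (2.8%) and in 10 of 1090 of genes called higher (0.917%). None of the 10 windows of the smooth muscle list held it, which says only that those letters are not in that stretch.

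Ion channels and receptors that set vascular tone included many lower genes. Of the potassium channel genes, 7 of 14 were called lower and 1 higher (median -1.32), or 4 lower with a pseudocount of 1. Kcnmb1, the β1 subunit that tunes the large-conductance calcium-activated channel to calcium, was at 57.8, 52.5 and 44.3 FPKM in the CFA mice and 6.43, 6.52 and 11.3 FPKM in the CSA mice. Kcnma1, the pore of the same channel, was at 5.32, 3.93 and 4.34 against 2.23, 2.3 and 3.86 FPKM and was not called (log2 difference -0.71). The called exception in the other direction was Kcnj2, an inward rectifier, at 0.978, 0.355 and 0.65 against 2.38, 3.33 and 7.36 FPKM. Among genes of calcium entry and stores, 7 of 16 were lower and none higher, or 1 with a pseudocount of 1. Itpr1, the main IP3 receptor of smooth muscle, was at 16.6, 14.1 and 18.7 against 4.82, 4.04 and 5.24 FPKM, and Cacna1c, the L-type calcium channel, at 4.89, 4.1 and 4.86 against 1.67, 1.49 and 1.29 FPKM. The call of Cacna1c (log2 difference -1.58) was lost without CSA mouse 03 (-1.49), since the difference fell just short of 1.5.

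Genes of relaxation and of constriction were both among those called lower. In the nitric oxide and cyclic GMP list, 7 of 12 genes were called lower and none higher, with a median of -2.06. Gucy1a1, a subunit of the guanylate cyclase that senses nitric oxide, was at 20.9, 15.7 and 26.8 FPKM in the CFA mice and 3.68, 2.9 and 6.21 FPKM in the CSA mice. Prkg1, the cyclic GMP-dependent kinase, was at 6.8, 6.83 and 7.65 against 1.14, 1.35 and 0.971 FPKM (log2 difference -2.53, adjusted p = 7.09e-07). Mrvi1, the IP3 receptor-associated substrate of that kinase, was at 92.2, 69.2 and 92.7 against 9.15, 9.93 and 6.39 FPKM. Pde1a, a phosphodiesterase, was at 5.48, 4.22 and 5.82 against 8.55, 10.3 and 18.8 FPKM, higher in every CSA mouse but not past the limit (log2 difference 1.19). Of the vasoactive receptors, 8 of 15 were lower and none higher. Adra1d, an α1 adrenergic receptor, was at 32.1, 12.8 and 32.02 against 1.5, 2.38 and 0.584 FPKM, and P2rx1, the ATP-gated channel of sympathetic contraction, at 99.7, 84.9 and 48.6 against 6.81, 7.04 and 5.17 FPKM. Of the 2 forms of the type 1 receptor for Ang II, Agtr1b was at 4.47, 3.64 and 5.32 against 0.528, 0.812 and 0.79 FPKM (log2 difference -2.50, adjusted p = 2.3e-05). Agtr1a was at 1.55, 1.39 and 2.22 against 1.17, 1.32 and 1.55 FPKM, overlapping groups (log2 difference -0.31, 95% interval -0.85 to 0.22).

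Genes that attach the cell to its matrix were lower in part. In the dystrophin complex and caveolae list, 14 of 17 genes were called lower and none higher (median -2.01). Dmd, dystrophin, which ties actin to laminin receptors, was at 13.3, 12.5 and 11.7 FPKM in the CFA mice and 1.04, 1.11 and 1.58 FPKM in the CSA mice. Cavin1, the coat protein of caveolae, was at 370.2, 375 and 355 against 118, 116 and 55.3 FPKM. The sarcoglycans Sgcb and Sgce, shared by many cell types, had smaller log2 differences of -1.02 and -0.85 and were not called. Of the integrin adhesion genes, 10 of 24 were lower and none higher. Lims2, a partner of integrin-linked kinase, was at 88.3, 83.2 and 78.6 against 9.82, 13.6 and 5.3 FPKM, whereas its paralog Lims1 was at 29.2, 34.8 and 26.7 against 29.7, 27.7 and 37.5 FPKM (log2 difference 0.06, 95% interval -0.29 to 0.42). Tns1, tensin, was at 255, 234 and 256 against 30.2, 39.1 and 16.4 FPKM, and Flna, filamin A, at 955, 837 and 829.9 against 181, 184 and 92.7 FPKM. Itgb1, the common β1 chain, was lower in every CSA mouse but not called (log2 difference -0.93).

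Markers of other resident cells of the wall were partly lower. Of the pericyte markers, 4 of 11 were lower, beside 8.27% of all genes. Rgs5, a mural cell regulator of G protein signals, was at 1307, 959 and 641 FPKM in the CFA mice and 159.99, 186 and 194 FPKM in the CSA mice, whereas Pdgfrb, the mural PDGF receptor that fibroblasts also carry, was at 79.3, 49.4 and 71.1 against 67.99, 52.1 and 32.8 FPKM. The Rgs5 groups did not overlap and the Pdgfrb groups did (log2 differences -2.37 and -0.42). Of the endothelial markers, 6 of 18 were lower and 1 higher, beside 8.27% and 8.95% of all genes, and their median was -0.83 against 0.48 under saline. The number lower was 3 without CFA mouse 71 and 2 without CFA mouse 74, none was higher without CFA mouse 74 or CSA mouse 03, and the median was -0.52 without CSA mouse 03. Under saline these markers summed to 820, 250 and 831 FPKM in CFS mice 68, 69 and 70. In CSS mice 54, 55 and 56 they summed to 894, 670 and 664 FPKM. The saline groups overlapped, with CFS mouse 69 far below the rest, and no fit left out a saline mouse. Pecam1, an adhesion protein of endothelial junctions, was at 131, 75.9 and 187 against 31.3, 29.4 and 43.5 FPKM, and Vwf, von Willebrand factor, at 61.2, 39.1 and 93.2 against 16.7, 10.9 and 8.93 FPKM. The call of Pecam1 (log2 difference -1.84, adjusted p = 0.0215) was lost without CFA mouse 71 or 74 or CSA mouse 01 or 02, with adjusted p from 0.052 to 0.0851. Cdh5, the junctional cadherin of the same cells, was at 48.7, 35.6 and 58.8 against 45.1, 32.98 and 32.1 FPKM, overlapping groups. Nos3, endothelial nitric oxide synthase, was at 23.4, 13.5 and 31.7 against 6.69, 6.49 and 1.55 FPKM (log2 difference -2.37). Its call was lost without CSA mouse 03 (-1.69, adjusted p = 0.0642), CFA mouse 71 (adjusted p = 0.0584) or CFA mouse 74 (adjusted p = 0.0766). The 4 lymphatic markers tested gave no call.

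Of 14 fibroblast markers tested, 3 were called lower and none higher, beside 8.27% and 8.95% of all genes, with a median of -0.12. Without CFA mouse 71 or CSA mouse 01, 1 was called higher. Clec3b, which encodes tetranectin and marks adventitial fibroblasts, was at 244, 267 and 335 FPKM in the CFA mice and 35.7, 37.6 and 17.6 FPKM in the CSA mice. Gsn, gelsolin, which severs actin filaments, was at 538, 613 and 939 against 108, 99 and 74.4 FPKM. Scara5, a ferritin receptor, was at 37.6, 38.6 and 48.9 against 7.95, 8.39 and 10.6 FPKM. These 3 lay lower in every CSA mouse, with log2 differences of -3.28, -2.87 and -2.20. Lum, the collagen-binding proteoglycan lumican, went the other way, at 231, 166 and 187 against 467, 488 and 625 FPKM, with a log2 difference of 1.44 (adjusted p = 0.000222) just under the limit, which it passed without CFA mouse 71 or CSA mouse 01. Dcn, decorin, was at 272, 223 and 321 against 289, 294 and 707 FPKM, overlapping groups in which CSA mouse 03 was far above the rest.

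Fat and blood differed as well. Of the white adipocyte markers, 7 of 12 were called lower and none higher (median -2.18), and of the brown adipocyte markers 5 of 6 (median -2.77). Plin1, the coat protein of fat droplets, was at 11.9, 29.3 and 33.1 FPKM in the CFA mice and 4.21, 5.86 and 1.05 FPKM in the CSA mice. Cidea, a droplet protein of brown fat, was at 6.19, 7.29 and 7.25 against 0.296, 0.243 and 0 FPKM. Without CSA mouse 03 the log2 difference of Plin1 went from -2.88 to -2.17 and that of Cidea from -4.87 to -4.25, and both stayed called. Adipoq, adiponectin, was at 20.8, 49.03 and 63.2 against 14.1, 22.6 and 5.67 FPKM, overlapping groups and no call. The same lists leaned lower in CSS than in CFS, with medians of -1.17 and -1.10, and the interaction was called for 2 white and 3 brown markers. The amount of fat left on each aorta was not recorded in the labels, and its part in these values was not tested. All 5 erythrocyte genes were called lower (median -3.01), and they summed to 2497, 767 and 943 FPKM in CFA against 88.7, 621 and 63.3 FPKM in CSA. CSA mouse 02 lay close to the controls, and without CSA mouse 03 none of the genes was called (median -2.37). None was called without CFA mouse 71 or CSA mouse 01 either, 3 were without CFA mouse 72 and 1 without CFA mouse 74.

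Markers of most leukocyte lineages were higher. Of the macrophage markers, 12 of 15 were called higher and 1 lower, with a median of 2.86 under Ang II and 0.14 under saline. Cd68, a lysosomal protein of macrophages, was at 10.2, 23.99 and 8.14 FPKM in the CFA mice and 111, 99.5 and 103 FPKM in the CSA mice (log2 difference 3.04, SE 0.31, adjusted p = 2.37e-05). Fcgr1, the high-affinity receptor for IgG, was at 1.17, 5.72 and 1.0 against 72.1, 72.9 and 83 FPKM. Ms4a7 was at 1.04, 2.15 and 1.05 against 46.9, 40.05 and 42.2 FPKM. In all 3, CFA mouse 72 held the highest control value and still lay below every CSA mouse. Gpnmb, a glycoprotein of foam cells and of several other cells, was the marker called lower, at 12.9, 9.9 and 14.1 against 3.0, 2.33 and 1.92 FPKM (log2 difference -2.31). At an adjusted p under 0.05 and any size, 13 of the macrophage markers were higher and 2 lower.

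Of the 7 resident macrophage markers tested, none was called higher and 1 was called lower, a share near that of all genes (8.95% higher and 8.27% lower). Their median was -0.46, or -0.89 without CSA mouse 03 and -0.17 without CFA mouse 72. Lyve1, a hyaluronan receptor, was at 15.03, 25.6 and 14.2 FPKM in the CFA mice and 7.19, 7.56 and 16.1 FPKM in the CSA mice, and Cd163, the haptoglobin-hemoglobin receptor, at 8.39, 24.4 and 11.6 against 3.89, 5.93 and 10.1 FPKM, neither of them called. Cbr2, a carbonyl reductase found in resident macrophages, was at 219.8, 207 and 166 against 36.9, 38.3 and 31.1 FPKM and was called lower (log2 difference -2.47, adjusted p = 1.01e-06).

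All 6 monocyte genes were called higher, with a median of 4.56. Ly6c2, which marks classical monocytes, was at 0.235, 0.31 and 0.31 FPKM in the CFA mice and 43.1, 34.3 and 34.6 FPKM in the CSA mice. Ccr2, the receptor for CCL2 that brings monocytes out of the marrow, was at 2.45, 8.31 and 2.87 against 62.8, 59.2 and 85.4 FPKM. Plac8 was at 3.81, 8.64 and 2.9 against 139, 148 and 169 FPKM. No value of a CFA mouse came near a CSA value in any of these. All 12 neutrophil genes tested were called higher too (median 4.80), or 10 with a pseudocount of 1. S100a8 and S100a9, the 2 chains of calprotectin, were at 3.04, 4.89 and 2.31 against 114, 120.2 and 156 FPKM and at 13.2, 11.7 and 5.42 against 278, 276 and 251 FPKM. Ngp, a granule protein of immature neutrophils, was listed at 0 in all 3 CFA mice and at 6.85, 8.91 and 12.3 FPKM in the CSA mice, and Elane, the elastase of azurophil granules, was at 0, 0.144 and 0.0479 against 2.05, 1.15 and 2.12 FPKM.

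**Figure D2:**
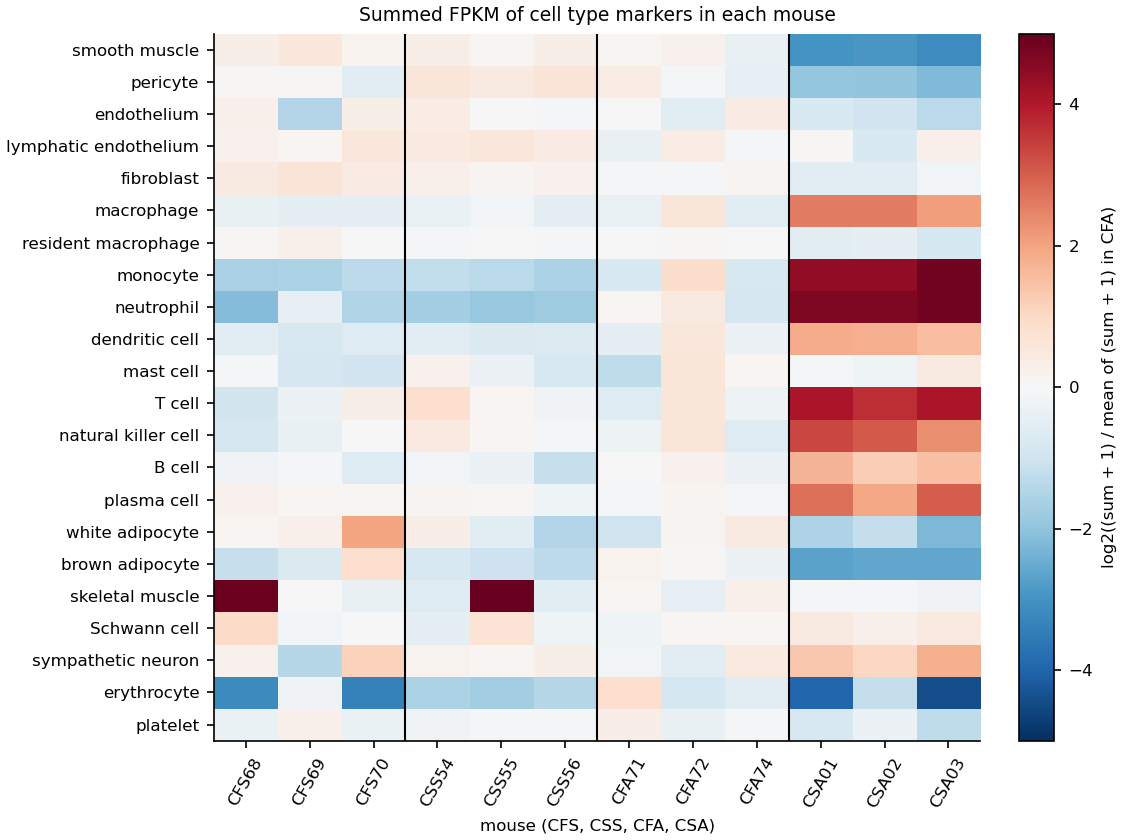
Summed FPKM of each cell type's markers in each of the 12 mice, as log2 of the sum plus 1 relative to the mean in CFA, with colours ending at 5 in either direction and black lines between the 4 groups. In the 3 CSA columns smooth muscle and brown adipocyte sums were low and monocyte, neutrophil and T cell sums were high, and skeletal muscle sums were high only in CFS mouse 68 and CSS mouse 55.

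All 12 T cell genes tested, of 15 listed, were called higher, with a median of 3.58. At low levels the size depends on the pseudocount, and with a pseudocount of 1 the median was 1.82 with 9 called. Genes low in controls could pass the filter through the CSA mice alone, which favours higher calls. Counts of tested genes in the leukocyte lists, and in any other list with genes low in controls, are therefore a description. Trac, the constant region of the α chain of the T cell receptor, was at 0.0491, 0.655 and 0.252 FPKM in the CFA mice and 13.8, 9.63 and 11.03 FPKM in the CSA mice. Cd4 and Cd8a, the coreceptors of helper and cytotoxic T cells, were at 5.89, 4.1 and 3.32 and at 3.39, 1.98 and 1.18 FPKM in the CSA mice, against at most 0.421 and 0.181 FPKM in a CFA mouse. Only 3 of the 10 natural killer genes listed were tested. These 3 were called higher, among them Gzmb, granzyme B, at 0.224, 0.361 and 0.0328 against 6.24, 3.45 and 1.91 FPKM. Of the 6 B cell genes tested, from 11 listed, 4 were higher, but 2 without CFA mouse 74 and 1 with a pseudocount of 1. Ighm, the heavy chain of IgM, was at 15.2, 18.4 and 13.4 against 52.1, 35.99 and 47.5 FPKM with a log2 difference of 1.52 that went under the limit without CSA mouse 03 (1.47), CSA mouse 01 (1.40) or CFA mouse 74 (1.41). Cd79a, which B cells need for their receptor, was at 0.945, 1.03 and 0.259 against 2.33, 1.78 and 0 FPKM and was not called (log2 difference 0.03, or 1.51 with an adjusted p of 0.1 without CSA mouse 03). Of the plasma cell genes, 4 of 7 were higher. Jchain, which joins antibody units, was at 0.109, 1.27 and 0.262 against 33.7, 17.5 and 20.5 FPKM, and Igkc, the κ light chain, at 6.04, 18.4 and 10.7 against 385, 177 and 536 FPKM.

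Of the dendritic cell genes, 6 of 9 were higher, or 3 with a pseudocount of 1. Itgax, the CD11c integrin chain, was at 0.593, 2.97 and 0.943 FPKM in the CFA mice and 19.9, 15.9 and 14.05 FPKM in the CSA mice, and Ccr7, the receptor that guides mature dendritic and T cells to lymph nodes, at 0.186, 1.36 and 0.167 against 9.41, 11.1 and 8.25 FPKM. Clec9a, a marker of cross-presenting dendritic cells, was at 1.49, 1.8 and 1.58 against 1.91, 1.92 and 2.08 FPKM (log2 difference 0.27) and was not called. Of the mast cell genes, 1 of 6 was called beside 17.2% of all genes, Hdc, histidine decarboxylase, which neutrophils and other myeloid cells also express, at 0.338, 0.833 and 0.45 against 9.43, 8.24 and 6.38 FPKM. The mast cell proteases Cpa3 and Mcpt4 were at 1.88, 7.05 and 5.04 against 1.88, 2.14 and 8.6 FPKM and at 1.74, 11.9 and 9.03 against 4.27, 3.06 and 5.54 FPKM, with wide overlap. Markers of lymph node stroma were mostly untested at these levels, and Cxcl13, the 1 tested, was not called (log2 difference 1.33, adjusted p = 0.118), though it was without CFA mouse 72 (1.93) or without CSA mouse 01 (1.86).

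**Figure D3:**
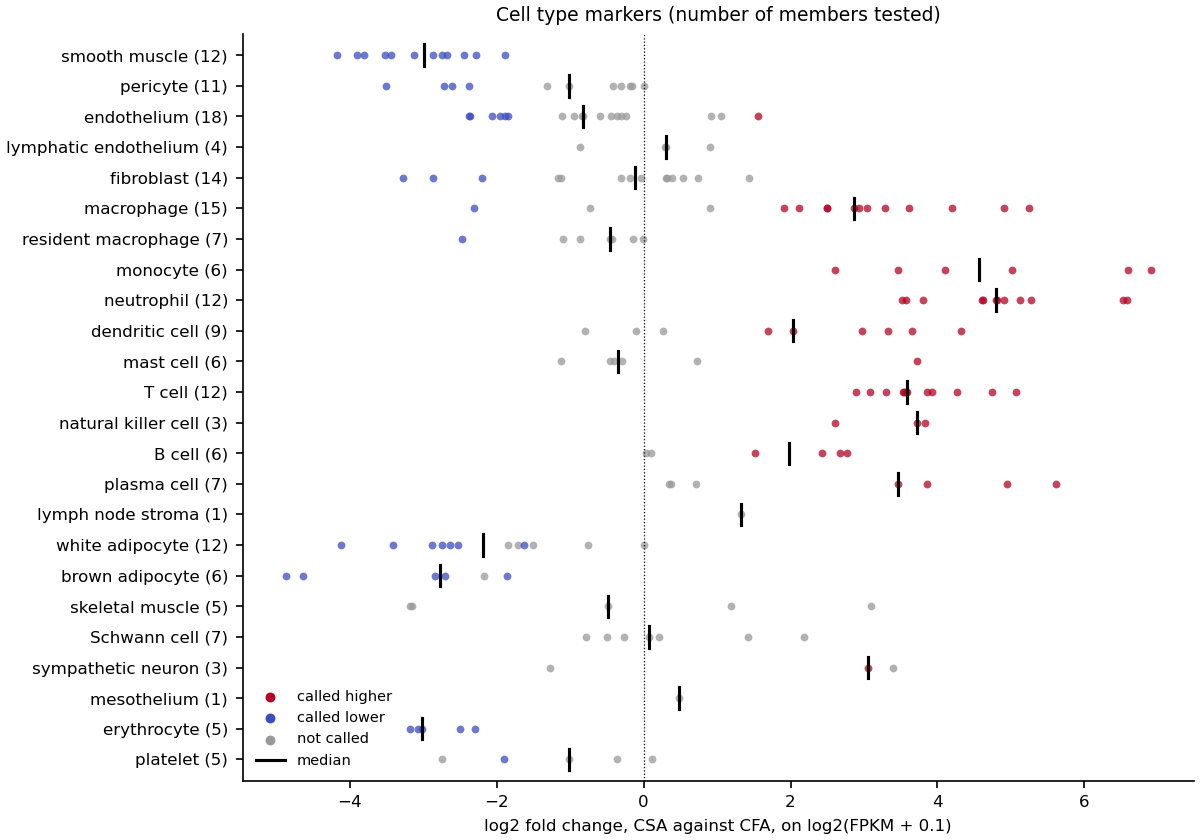
Log2 difference of each tested marker gene in CSA against CFA, on log2(FPKM + 0.1), by cell type, with the number of markers tested in parentheses and a bar at the median. The smooth muscle markers lie between -4.17 and -1.88, the lowest monocyte, neutrophil and T cell markers lie at 2.61, 3.52 and 2.89, and the medians of fibroblast and resident macrophage markers lie at -0.12 and -0.46.

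Chemokine genes were mostly higher. Of 23 tested, 19 were called higher and none lower (median 3.61). Ccl2 and Ccl7, which draw monocytes through CCR2, were at 1.29, 6.13 and 0.332 FPKM against 85.8, 70.8 and 61.6 FPKM and at 1.95, 11.9 and 1.12 FPKM against 152, 135 and 229 FPKM. Cxcl1 and Cxcl2, which draw neutrophils through CXCR2, were at 37.04, 26.3 and 13.8 FPKM and 23.6, 21.8 and 12.8 FPKM in the CSA mice and at most 2.69 and 1.0 FPKM in a CFA mouse. Cxcl12, made by stromal and mural cells, was already present in controls and was at 30.7, 37.9 and 30.6 against 194, 201 and 162 FPKM (log2 difference 2.49, SE 0.16, adjusted p = 1.31e-06). Its groups were tight, with no mouse near the other group. Cx3cl1, the membrane-bound chemokine fractalkine, was at 10.5, 8.61 and 9.91 against 16.4, 11.3 and 6.82 FPKM, overlapping groups. In the leukocyte adhesion list, 9 of 12 were higher. Itgb2, the β2 integrin chain of leukocytes, was at 5.99, 13.1 and 5.47 against 74.2, 66.2 and 69.6 FPKM, and its endothelial ligand Icam1 at 14.1, 14 and 13.2 against 20.7, 17.9 and 10.7 FPKM, overlapping groups. Vcam1, which endothelium and smooth muscle can both carry, was at 10.3, 13.5 and 11.3 against 41.3, 33.8 and 47.4 FPKM (log2 difference 1.79).

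All 20 interferon-stimulated genes tested were called higher, from 2.44 to 5.66 with a median of 4.45, and the interaction with treatment was called for 19 of them. Type I interferon acts through a transcription factor complex that binds the interferon-stimulated response element, written here as GAAA, any 2 bases and GAAA on either strand. That motif was in the 250 bases before the start site in 367 of 12975 promoter windows of genes tested (2.83%), in 114 of 1090 windows of genes called higher (10.5%) and in 16 of 1071 of genes called lower (1.49%). In the interferon-stimulated list, 9 of the 15 windows available held it (60%), and in the smooth muscle list, whose genes were all called lower, 2 of 10 windows did (20%). Windows come from the RefSeq promoter table for build GRCm38.p6, in which 14 of the 20 genes of the list were found. A match is a description of letters, not a measured site. The stretches below belong to 4 of these genes and are shown because their matches lie within 104 bases of the start site. They are printed 5′ to 3′ on the strand of the gene, with the matched bases in capitals.
Isg15: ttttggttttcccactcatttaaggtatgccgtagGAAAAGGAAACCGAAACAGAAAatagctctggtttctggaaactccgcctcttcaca
Ifit1: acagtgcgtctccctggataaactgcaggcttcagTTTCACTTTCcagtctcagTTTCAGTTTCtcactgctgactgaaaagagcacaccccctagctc
Oas1a: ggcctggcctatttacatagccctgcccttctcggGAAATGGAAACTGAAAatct
Oas3: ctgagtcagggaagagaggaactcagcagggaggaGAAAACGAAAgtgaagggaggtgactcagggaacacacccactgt

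The Isg15 stretch spans chr4:156200840-156200931 (minus strand), and its matches start 78, 72 and 66 bases before the start site. The Ifit1 stretch spans chr19:34640750-34640848 (plus strand), and its matches start 104 and 85 bases before the start site. The Oas1a stretch spans chr5:120907526-120907580 (minus strand), and its matches start 20 and 14 bases before the start site. The Oas3 stretch spans chr5:120777690-120777769 (minus strand), and its match starts 75 bases before the start site. Isg15, a ubiquitin-like protein that is joined to other proteins after interferon, was at 5.46, 11.3 and 6.18 FPKM in the CFA mice and 189, 203 and 103 FPKM in the CSA mice (log2 difference 4.43, SE 0.32, adjusted p = 3.19e-06). Ifit1, which binds viral RNA lacking a host cap, was at 0.795, 9.17 and 2.04 against 64.7, 67.96 and 155 FPKM. Oas1a and Oas3, which make the adenylate messenger that activates RNase L, were at 1.24, 4.8 and 1.18 against 54.3, 52.4 and 36.2 FPKM and at 0.104, 0.753 and 0.0868 against 17.6, 15.5 and 12.1 FPKM, although near-identical copies of the Oas1 genes could have shared reads. CFA mouse 72 was again the highest control for each of these 4, and no control reached the lowest CSA mouse. Irf7, the transcription factor that amplifies interferon production, was at 1.26, 5.98 and 2.47 against 138, 121 and 99.9 FPKM. Mx1, a GTPase against viruses, was at 0.279, 6.75 and 0.237 against 41.03, 33.97 and 55.98 FPKM, with CFA mouse 72 far above the other controls.

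**Figure D4:**
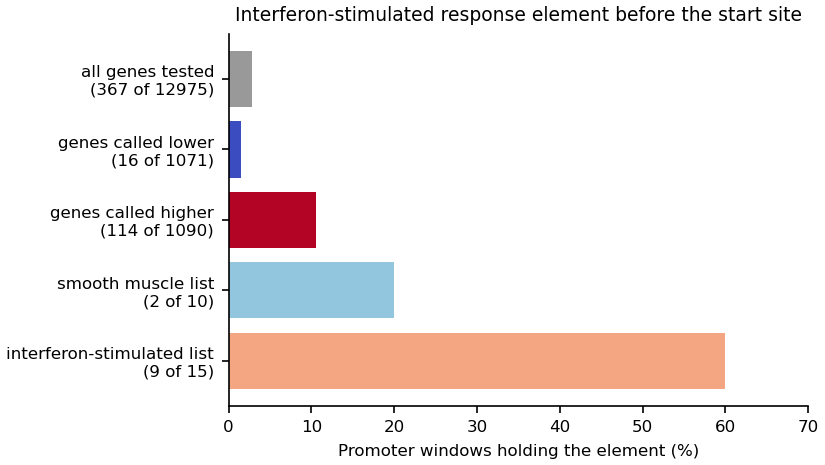
Share of promoter windows (250 bases before the start site, in percent) that hold an interferon-stimulated response element, for all genes tested, genes called lower, genes called higher, the smooth muscle list and the interferon-stimulated list, with counts in parentheses. The share was 2.83% over all genes, 1.49% and 10.5% in the lower and higher genes, 20% in the smooth muscle list and 60% in the interferon-stimulated list.

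Genes of antigen presentation and innate sensing were higher too. All 11 MHC class II genes were called higher (median 2.72, against 0.81 under saline), and 6 of 11 MHC class I genes. Cd74, the invariant chain that escorts class II molecules, was at 92.3, 343 and 132 FPKM in the CFA mice and 1488, 1311 and 1415 FPKM in the CSA mice. H2-Ab1, a class II β chain, was at 23.1, 112 and 38.8 against 504, 450.4 and 417 FPKM. B2m, the light chain of class I molecules, was at 495, 537 and 496 against 1658, 1509 and 3934 FPKM, with CSA mouse 03 far above CSA mice 01 and 02. Of the Toll-like receptor and inflammasome genes, 17 of 20 were higher and none lower. Il1b, interleukin-1β, was at 1.08, 5.44 and 0.47 against 91.3, 59.6 and 78.7 FPKM, and Tlr13, a sensor of bacterial ribosomal RNA, at 0.779, 2.13 and 0.734 against 22.6, 25.8 and 44.6 FPKM. Tlr4, which mural cells also carry, was at 7.23, 7.29 and 6.73 against 7.19, 7.28 and 12.1 FPKM and was not called (log2 difference 0.27). Of the complement genes, 7 of 16 were higher. The called members included C3ar1 at 2.92, 5.4 and 2.16 against 50.5, 49.8 and 80.9 FPKM and C1qb at 56.8, 120.5 and 45.3 against 525, 522 and 438 FPKM.

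Of 15 elastic fibre genes tested, 1 was called lower and 1 higher, a share near the 17.2% called over all genes, with a median of 0.07. Eln, tropoelastin, was at 2263, 1618 and 774 FPKM in the CFA mice and 970.4, 865 and 338 FPKM in the CSA mice, with overlapping groups (log2 difference -1.11, 95% interval -2.03 to -0.18, adjusted p = 0.0558). Without CFA mouse 74, the control with the lowest Eln, the difference was -1.54 (adjusted p = 0.0112), which made it a call, and without CSA mouse 03 it was -0.63. Fbln5, fibulin-5, which elastin needs for fibre assembly, was at 324, 229.8 and 245 against 76.6, 74.2 and 73.3 FPKM and was called (log2 difference -1.82, adjusted p = 4.87e-06). Lox, the enzyme that cross-links elastin and collagen, was at 187, 174 and 112 against 293, 302 and 513 FPKM, higher in every CSA mouse but under the limit (log2 difference 1.21). Fbn2, fibrillin-2, a microfibril protein of the growing vessel, was the gene called higher, at 0, 0.0225 and 0.0045 against 2.97, 2.15 and 4.51 FPKM.

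Among the collagens, 4 of 16 were called higher and 1 lower, beside 8.95% and 8.27% of all genes. The lower call was lost without CFA mouse 71 or 72. Col1a1 and Col3a1, the main fibrillar chains, were at 1512, 1383 and 1422 against 3262, 2561 and 2647 FPKM and at 1014, 913 and 957 against 1851, 1582 and 1456 FPKM. They were higher in every CSA mouse, with log2 differences of 0.96 and 0.76 (adjusted p = 0.000529 and 0.00161) under the limit of 1.5. Col11a1 and Col12a1, a minor fibrillar chain and a fibril-associated collagen, were called, at 0.303, 0.581 and 0.37 against 9.32, 10.1 and 14.8 FPKM and at 3.73, 3.74 and 2.74 against 23.2, 25.5 and 35.8 FPKM. Basement membrane genes were lower in part, with 9 of 18 called lower and none higher (median -1.51). In the other direction, 2 had an adjusted p under 0.05 without passing the limit. Col4a5, a chain of the smooth muscle basement membrane, was at 97.4, 80.8 and 73.8 against 21.9, 20.5 and 14.6 FPKM, and Lamb2, laminin β2, at 156, 159 and 159 against 48.6, 42.3 and 25.95 FPKM. The general type IV chains Col4a1 and Col4a2 were lower in every CSA mouse with log2 differences of -0.88 and -1.06, and laminin Lamb1 was at 4.25, 5.41 and 5.4 against 13.2, 8.38 and 10.3 FPKM, higher in every CSA mouse and not called.

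Genes of activated fibroblasts were mixed. Cthrc1, a secreted protein of injured vessels, was at 6.94, 7.42 and 3.55 FPKM in the CFA mice and 46.8, 66.6 and 53.05 FPKM in the CSA mice (log2 difference 3.25, adjusted p = 3.2e-05). Postn, periostin, was at 325, 424 and 144 against 118, 98.7 and 168 FPKM and Fn1, fibronectin, at 924, 865 and 565 against 424, 346 and 406 FPKM, with negative differences (-1.11 and -0.97) and no call. Postn was called lower without CFA mouse 74 (-1.57), the control with the least of it. Both genes had positive differences under saline (0.95 and 0.99). In that list 3 of 12 were called higher and none lower, beside 8.95% and 8.27% of all genes.

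Of the matrix proteases, 7 of 15 were called higher and none lower, with a median of 1.24. Mmp13, a collagenase, was at 0.0515, 0.635 and 0.247 FPKM in the CFA mice and 29.1, 33.9 and 44.2 FPKM in the CSA mice. Mmp3, stromelysin, was at 61.7, 65.2 and 37.7 against 259, 259 and 266 FPKM (log2 difference 2.29, SE 0.20, adjusted p = 9.51e-06). Mmp9, a gelatinase of neutrophils and macrophages, was at 2.33, 5.09 and 2.8 against 19.2, 20.8 and 16.9 FPKM. Mmp2, the gelatinase of stromal cells, was not called, at 137, 97.9 and 139 against 261, 196 and 157 FPKM. Of the inhibitors, 1 of 9 was called higher and 3 lower, beside 8.95% and 8.27% of all genes. The number lower was 2 without CFA mouse 71 or CSA mouse 02, and 4 without CFA mouse 72 or CSA mouse 03. Timp1 was at 29.9, 109.8 and 19.4 against 494, 677 and 259.8 FPKM, with CFA mouse 72 the highest control, whereas Timp4 was at 7.66, 6.76 and 12.5 against 0.535, 0.888 and 0.299 FPKM and Reck, a membrane-anchored inhibitor, at 38.4, 27.7 and 31.8 against 8.8, 9.11 and 8.98 FPKM. Timp3, which stays bound in the matrix, was lower in every CSA mouse (log2 difference -1.46), and became a call without CSA mouse 03 (-1.55) or CFA mouse 72. Ctss, cathepsin S, an elastase of macrophages, was at 20.96, 61.3 and 19.3 against 674, 669 and 796 FPKM, while the ubiquitous Ctsl was at 69.7, 64.3 and 57.1 against 60.8, 69.6 and 70.6 FPKM.

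The shares called in the signaling lists are to be read beside the 17.2% of all genes. In the BMP list 3 of 18 genes were lower and 1 higher, close to that share. Bmp6, a ligand, was at 61.2, 35.7 and 64.6 FPKM in the CFA mice and 9.32, 9.34 and 3.65 FPKM in the CSA mice, and Smad6, the feedback inhibitor, at 32.6, 28.3 and 27.2 against 10.8, 11.7 and 2.77 FPKM. Smad6 was called lower (log2 difference -2.03), but its difference without CSA mouse 03 was -1.37, under the limit. Grem1, gremlin, a secreted antagonist of BMP ligands, was at 0.144, 0.886 and 0.136 against 6.84, 6.65 and 7.68 FPKM. Of the Notch genes, 2 of 15 were lower and 1 higher, beside the 17.2% of all genes. Their median was -0.42, or -0.18 without CSA mouse 03 and -0.71 without CSA mouse 02. Heyl and Hey2, which are targets of the pathway in mural cells, were at 71.3, 26.8 and 61.9 against 6.44, 4.54 and 2.58 FPKM and at 22.4, 13.7 and 21.7 against 3.45, 3.04 and 4.02 FPKM, while the receptor Notch2 was at 17.03, 13.6 and 19.6 against 16.2, 13.7 and 9.58 FPKM, overlapping groups. Lfng, a glycosyltransferase that tunes Notch receptors, was called higher, at 4.54, 9.09 and 5.52 against 34.8, 36.1 and 16.7 FPKM. Of the Wnt genes, 4 of 13 were higher and 2 lower. Sfrp1, a secreted Wnt binder, was at 51.4, 44.3 and 57.1 against 274, 268 and 362 FPKM, and Axin2, the usual readout of Wnt and β-catenin, at 1.24, 1.04 and 1.23 against 1.25, 0.976 and 1.26 FPKM (log2 difference -0.02, 95% interval -0.55 to 0.52). Gli1, the usual readout of Hedgehog signals, was at 8.84, 7.54 and 8.55 against 1.79, 1.26 and 0.954 FPKM and was called lower (log2 difference -2.59, adjusted p = 7.42e-06).

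In the CCN family, Ccn3 was at 493, 514 and 319 FPKM in the CFA mice and 128, 158 and 125 FPKM in the CSA mice (log2 difference -1.67), Ccn4 at 9.07, 7.4 and 5.81 against 21.7, 25.6 and 37.5 FPKM (log2 difference 1.90), and Ccn1 at 413, 375 and 157 against 161, 163 and 188 FPKM. Ccn3 was called lower, Ccn4 higher, and the Ccn1 groups overlapped. Yap1, the coactivator that works on CCN genes, was at 22.3, 24.3 and 22.3 against 10.9, 11.3 and 11.2 FPKM, lower in every CSA mouse and under the limit (log2 difference -1.04). Of the chondrogenic and osteogenic genes, 3 of 10 were called higher and 2 lower, beside 8.95% and 8.27% of all genes. The list held 14 genes, and those low in controls could pass the filter through the CSA mice alone, so these counts are a description. The number higher was 4 without CFA mouse 72, 2 without CFA mouse 71, CFA mouse 74 or CSA mouse 01, and 1 with a pseudocount of 1. Cytl1, a secreted protein of cartilage, was at 236, 98.3 and 468 against 5.13, 10.2 and 8.34 FPKM, and Chad, chondroadherin, at 19.1, 9.54 and 16.2 against 1.41, 3.06 and 1.86 FPKM. Runx2, the osteoblast transcription factor, was at 0.312, 0.443 and 0.304 against 2.3, 2.19 and 3.1 FPKM and was called higher, though not with a pseudocount of 1, while Sox9, that of cartilage, was at 0.91, 0.809 and 0.833 against 1.66, 1.17 and 1.75 FPKM and was not.

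H19, an imprinted long noncoding RNA of fetal tissues, was called higher. It was at 2.16, 3.74 and 1.13 FPKM in the CFA mice and 159, 152 and 97.1 FPKM in the CSA mice (log2 difference 5.92, SE 0.76, adjusted p = 0.000116), and its log2 difference under saline was -0.11. Among abundant genes called higher, Lyz2, lysozyme of myeloid cells, was at 183, 335 and 172 against 988, 1063 and 1234 FPKM, and Apoe, apolipoprotein E of macrophages and other cells, at 332, 435 and 449 against 1893, 1896 and 921 FPKM, with CSA mouse 03 well below the other 2. Of the genes for lipid uptake and efflux, 5 of 11 were higher and 1 lower, the latter call lost without CFA mouse 72, CFA mouse 74 or CSA mouse 02 and with array weights. Among the higher genes was Msr1, the class A scavenger receptor, at 0.724, 2.01 and 0.654 against 10.96, 13.5 and 25.6 FPKM. Of the oxidant enzymes, 7 of 17 were higher and 2 lower, and the NADPH oxidases were on opposite sides. Cybb, the catalytic subunit of phagocytes, was at 3.22, 6.51 and 3.4 against 48.5, 41.2 and 72.5 FPKM, and Nox4, that of the vessel wall, at 32.1, 27.6 and 40.1 against 4.84, 7.03 and 10.1 FPKM (log2 differences 3.63 and -2.22). Hmox1, heme oxygenase-1, was at 7.18, 17.2 and 7.89 against 46.6, 48.8 and 39.6 FPKM, and Lcn2, the iron-siderophore binder of neutrophils, at 0.665, 3.13 and 0.809 against 33.5, 40.5 and 57.6 FPKM.

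Proliferation genes leaned higher, and how many were called depended on single mice. In the mitosis list 7 of 20 genes were called higher and none lower, beside 8.95% and 8.27% of all genes, and 9 had an adjusted p under 0.05 at any size. Every log2 difference in it was positive, from 0.67 to 2.25 (median 1.34). That median was 0.76 without CFA mouse 74 and 1.89 without CFA mouse 72. The number called was 3, 17 or 1 without CFA mouse 71, 72 or 74, and 2, 3 or 3 without CSA mouse 01, 02 or 03. The median under saline was 0.89. Mki67, the proliferation antigen, was at 3.82, 5.92 and 0.835 FPKM in the CFA mice and 7.07, 6.48 and 17.2 FPKM in the CSA mice (log2 difference 1.74, adjusted p = 0.0499). Leaving out CFA mouse 71 or 74 or any of the CSA mice ended that call, with log2 differences from 0.95 to 1.99. Birc5, survivin, was at 1.74, 2.58 and 0.471 against 4.78, 5.64 and 10.7 FPKM. CFA mouse 74 was the lowest control in both. Among DNA replication genes 3 of 16 were called higher (1 without CFA mouse 74), beside 8.95% of all genes. An adjusted p under 0.05 was reached by 11 of them, and every difference in the list was positive, from 0.61 to 1.99. Mcm5, a helicase subunit, was at 2.56, 3.71 and 1.24 against 10.04, 8.18 and 5.8 FPKM (log2 difference 1.73, or 1.31 and no call without CFA mouse 74). Of the cell death genes 7 of 22 were higher and none lower. Ripk3, the kinase of necroptosis, was at 1.86, 3.21 and 1.42 against 13.6, 12.9 and 7.89 FPKM, and Pmaip1, the BH3 protein NOXA, at 0.503, 1.02 and 0.802 against 8.88, 8.18 and 11.6 FPKM, while Bcl2, the inhibitor of apoptosis, was lower in every CSA mouse and under the limit (log2 difference -1.13).

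Energy metabolism differed by smaller steps. None of the 16 citric acid cycle genes, the 16 fatty acid oxidation genes or the 17 nuclear respiratory chain genes was called, with medians of -0.39, -0.50 and -0.25. Within these lists 7, 6 and 1 genes had an adjusted p under 0.05 with a negative difference. The median of the nuclear respiratory chain genes was -0.07 without CSA mouse 03 and -0.04 with array weights. The genes of the mitochondrial genome had a larger negative median (-1.04), and 1 of 9 was called lower, beside 8.27% of all genes. An adjusted p under 0.05 with a negative difference was reached by 7 of the 9. Without CSA mouse 03 the median was -1.43 with 3 called, and without CSA mouse 01 or 02 none was called. Mitochondrial RNA held 11.2% to 12.9% of FPKM in CFA, 4.62% to 9.94% in CSA, 12.6% to 14.6% in CFS and 8.3% to 8.99% in CSS, so it was lower in the deleted group under saline too. mt-Nd2, a subunit of complex I, was at 2832, 2921 and 3073 against 839, 763 and 1623 FPKM, with CSA mouse 03 the highest of its group, and its call (log2 difference -1.54) was lost without CSA mouse 01 (-1.40) or 02 (-1.33). Ribosomal protein genes leaned the other way, with a median of 0.52 and 11 of 15 at an adjusted p under 0.05, none of them past the limit. Rplp0, of the ribosomal stalk, was at 482, 584 and 434 against 897, 1079.7 and 801 FPKM. In glycolysis the muscle isoform Pfkm was called lower (22.5, 19.3 and 20.6 against 7.58, 7.33 and 4.73 FPKM, with log2 differences of -1.68 with and -1.47 without CSA mouse 03) and Hk3, the hexokinase of myeloid cells, higher (0.748, 1.25 and 0.743 against 10.3, 8.83 and 5.05 FPKM), while the other 16 of 18 were not called, beside 17.2% called over all genes. Without CSA mouse 03, 3 glycolysis genes were called higher and none lower.

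**Figure D5:**
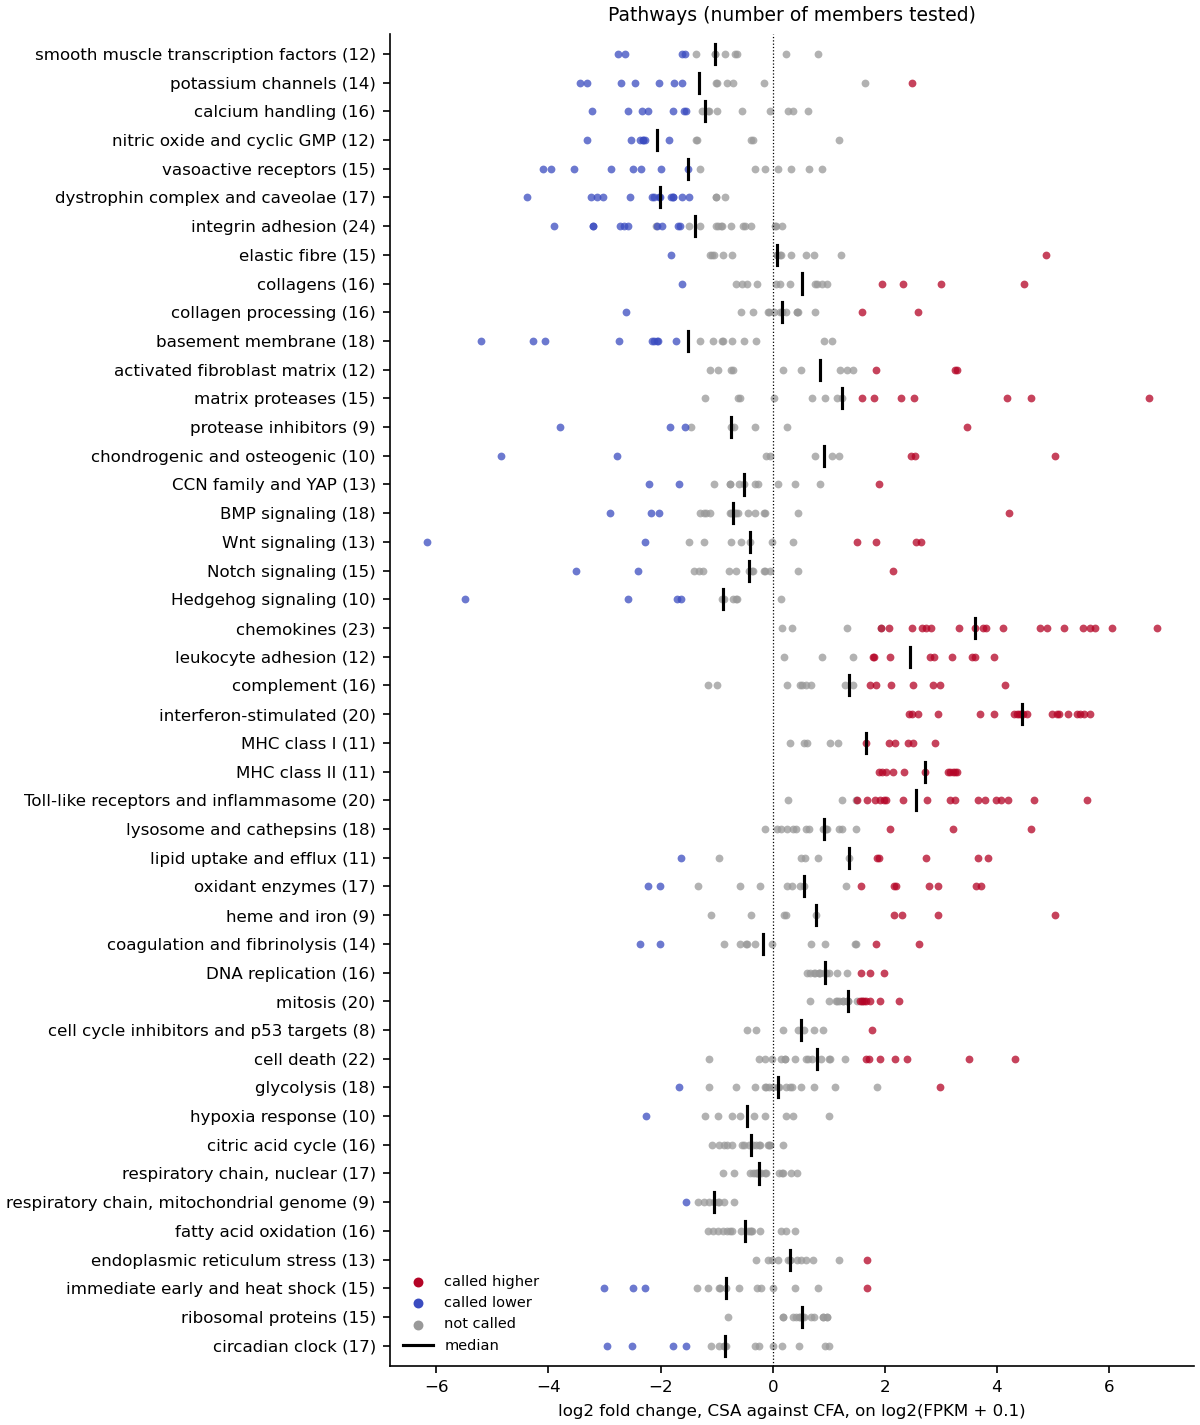
Log2 difference of each tested gene in CSA against CFA, on log2(FPKM + 0.1), by pathway list, with the number of genes tested in parentheses and a bar at the median. The median lies at -2.01 for the dystrophin complex and caveolae, -1.51 for basement membrane, 4.45 for interferon-stimulated genes and -0.39 for the citric acid cycle.

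Of the circadian genes 4 of 17 were called lower and none higher, beside 8.27% and 8.95% of all genes. Nr1d1, the repressor REV-ERBα, was at 63.4, 78.5 and 80.7 FPKM in the CFA mice and 23.9, 25.02 and 16.2 FPKM in the CSA mice (log2 difference -1.78, adjusted p = 0.00113, with CSA mouse 03 the lowest), and its difference under saline was 1.10. Npas2, a paralog of Clock, was at 11.2, 3.13 and 8.65 against 3.27, 0.649 and 0.586 FPKM, groups that overlap, and its call (log2 difference -2.51) was lost without CFA mouse 71 (-2.15), CFA mouse 74 (-2.33) or CSA mouse 02 (-2.17). Arntl, BMAL1, at 4.52, 1.52 and 3.49 against 1.98, 1.13 and 1.35 FPKM, was not called. The hour of tissue collection was not in the labels, and its part in these values was not tested. Of the immediate early and heat shock genes, 3 of 15 were called lower and 1 higher (2 higher without CSA mouse 03), beside 8.27% and 8.95% of all genes. The higher gene was Egr2, a zinc finger factor, at 1.09, 2.47 and 0.819 against 4.17, 3.76 and 5.47 FPKM, and its call was lost without CFA mouse 74 and with a pseudocount of 1. Hspa1a, an inducible chaperone, was at 9.1, 21.2 and 9.13 against 1.53, 1.91 and 0.968 FPKM and Fosb at 3.52, 4.42 and 3.82 against 0.899, 0.861 and 0.502 FPKM, both called lower, and Fos and Jun were not called (log2 differences -0.20 and -0.60). Adm, adrenomedullin, a vasodilator that hypoxia induces, was at 16.8, 17.9 and 20.98 against 3.35, 4.16 and 3.83 FPKM and was called lower (log2 difference -2.26), the only call among 10 hypoxia genes beside 17.2% of all genes, and Vegfa was at 15.3, 17.8 and 18.2 against 20.9, 17.1 and 10.4 FPKM, overlapping groups. Thbd, thrombomodulin, the anticoagulant receptor of endothelium, was at 67.9, 55.4 and 60.4 against 17.6, 15.5 and 12.7 FPKM and was called lower, whereas F3, tissue factor, was at 99.3, 70.2 and 62.7 against 34.5, 37.8 and 54.5 FPKM and was not.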

How the data were processed

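The authors deposited 1 table of FPKM per feature for 12 libraries of poly(A) RNA (paired-end, NovaSeq). The submitters' processing notes name HISAT2 2.0.5, StringTie 1.3.3b, featureCounts 1.5.0-p3 and build mm10, without saying what each did. Whether strand was used is not given in the sources used here, so antisense and overlapping genes cannot be told apart, and 170 genes tested share most of their exonic bases with other genes. FPKM moved in steps of 1 fragment, with 97.8% to 98.4% of values under 100 fragments within 0.02 of a whole number, which gave the depths, and the tests used FPKM. Genes that reached 1 FPKM in 3 or more of 12 libraries were fitted with limma 3.58.1 (R 4.3.3) on log2(FPKM + 0.1), with a coefficient per group and moderated, robust variances with a trend. A call is a Benjamini-Hochberg adjusted p under 0.05 over all genes tested and a log2 difference over 1.5 in size. The study's methods name DEG-Seq, a count method not used here. The fit was tested on simulated data.

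The 70 gene lists (927 of 928 genes matched) and the members were chosen with earlier results of these data known. From each list the text takes genes among the first 2 written, the most abundant, and the 3 with the largest log2 difference where the higher group averaged 5 FPKM or more, and across all genes the 15 in each direction largest in FPKM difference or, at 20 FPKM or more, in log2 difference. Named outside that rule, after their values were seen, were Carmn, Cd4, Cd8a, Clec9a, Col3a1, Col4a5, Ctsl, Cx3cl1, Cxcl1, Cxcl2, Egr2, Elane, Fbn2, Gm23935, Gpnmb, Gzmb, Irf7, Itgb1, Kcnj2, Lamb1, Lamb2, Lims1, Lum, Nox4, Oas1a, Pde1a, Pdgfrb, Runx2, Sgcb, Sgce, Srf, Tagln, Timp3, Tlr4 and Yap1. Some items are not reported here. Alternatives were another pseudocount, other filters, equal scaling, array weights, no trend, the Ang II libraries alone and each mouse left out.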

Additional observations from a re-analysis of the deposited data

Results flagged for a closer look

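The genotype difference under Ang II differed from that under saline for 2231 genes by the interaction term of limma, at an adjusted p under 0.05 and a log2 size over 1.5. The 23 genes below met this, with adjusted p from 3.85e-06 to 0.0292, and their differences under saline lay between -1.33 and 1.38. The interaction is the log2 difference under Ang II minus that under saline. In smooth muscle genes it was -4.03 for Myh11, -2.73 for Acta2, -3.80 for Itga8, -2.63 for Myocd and -3.39 for Dmd. For Lamc3, a laminin chain of basement membrane, it was -5.47. For Clec3b and Gsn, from the fibroblast list, it was -2.69 and -2.57. They do not stand for that list, in which the interaction was called for 4 of 14 genes tested. Its median log2 difference under Ang II was -0.12, with 3 genes called lower and 11 not called. In leukocyte genes it was 2.98 for Cd68, 4.47 for Ms4a7, 5.82 for Ly6c2, 5.81 for S100a8, 3.69 for Trac and 6.28 for Igkc. In antigen presentation, chemokine and interferon genes it was 2.27 for Cd74, 6.86 for Cxcl5, 4.42 for Isg15 and 5.56 for Irf7. In matrix genes it was 6.21 for Mmp13, 2.6 for Timp1, 4.36 for Spp1, which encodes osteopontin, and 4.43 for Col11a1, and for H19 it was 6.03. These genes were chosen with the results known. No test for a sample far from its group was run on these groups of 3 mice. By array weight, CSA mouse 03 stood apart at 0.068, against 0.619 to 2.503 for the other libraries.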

How the results depend on the processing

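Counts of genes called higher and lower, 1314 and 1214 as reported, were 918 and 683 with a pseudocount of 1, 452 and 643 over genes with a mean FPKM of at least 5, and 2864 and 3114 with no limit on the fold change. The last 2 changes follow from fewer genes tested or a different limit. A larger pseudocount makes log2 differences of low-level genes smaller, so fewer of them pass the limit of 1.5. Its share in the lost calls was not tested. Leaving out 1 mouse at a time gave 1210 to 1405 higher and 1061 to 1336 lower genes, and array weights 1423 and 1153. With the 6 Ang II libraries alone the counts were 1274 and 1080. Scaling every library to the same FPKM sum shifted the median log2 difference by 0.08 and gave 1393 and 1137. Ccn2 ran from -1.71 to -1.23 over all settings, with adjusted p from 0.000413 to 0.0277. The 2231 interaction genes became 2201 without CSA mouse 03, a setting chosen after seeing the data. The median of the skeletal muscle list, -0.48, ran from -1.08 to 0.55 with 1 mouse left out and reversed without CSA mouse 03, and the cause was not tested. Over 352 named genes and their settings, 4709 of 4844 values stayed on the same side of the limits for a call, 114 lost a call and 21 gained a call. Among genes with an adjusted p under 0.05 as reported, 0 values changed direction. Sign changes of the other genes were not counted. With a pseudocount of 1, 14 of them lost their call (those described in the text being Asns, Cacna1c, Gadd45a, Fosb, Ighm, Mcm5 and Mki67), with array weights 12 (Nr1d1, Ighm, Smad6 and Mki67 among those described), with the Ang II libraries alone 10 (Mki67), with no filter 5 (Mki67) and with equal scaling 3 (mt-Nd2). A pseudocount of 1 shrank the medians of low-level lists, from 3.72 to 1.87 for natural killer cells, 3.46 to 1.58 for plasma cells, 1.98 to 1.24 for B cells, 2.04 to 1.38 for dendritic cells and -2.77 to -1.55 for brown adipocytes, and that of the neutrophil list from 4.80 to 3.4. Of the genes named outside the rule, Cd8a, Egr2, Elane and Runx2 also lost their call with that pseudocount, and Srf with equal scaling, the Ang II libraries alone or array weights. The pseudocount of 1 left 1 mitosis and 0 DNA replication genes called higher and 2 Hedgehog genes called lower. Array weights moved the resident macrophage median to -1.01, and left 2 Wnt genes called higher and 2 circadian genes called lower. No paired analysis was possible because the groups share no replicate numbers. The 3 mice in a group limit the precision.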

Other observations

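Some lists not described above held calls in both directions or none, to be read beside the 8.95% of all genes called higher and 8.27% called lower. Of 16 collagen processing genes, 2 were called higher (1 without CSA mouse 03) and 1 lower, and Serpinh1, the collagen chaperone, was at 456, 478 and 336 FPKM in the CFA mice and 588, 576 and 347 FPKM in the CSA mice (log2 difference 0.23). Of 18 lysosome genes, 3 were higher and none lower. Laptm5, a lysosomal membrane protein of blood cells, was at 12.9, 28.3 and 11.4 against 154, 136 and 160.4 FPKM, and Ctsb, the broadly expressed cathepsin B, at 135, 148 and 137 against 267, 263 and 254 FPKM. Of 9 heme and iron genes, 4 were higher, among them Slc11a1, the metal transporter of phagosomes, at 5.84, 6.5 and 5.4 against 37.2, 33.6 and 20.7 FPKM. Of 14 coagulation genes, 2 were higher and 2 lower, with F10, coagulation factor X, at 0.672, 0.984 and 0.691 against 4.31, 4.89 and 6.79 FPKM. Of 10 Hedgehog genes, 4 were lower with CSA mouse 03 and 2 without it or without CFA mouse 71. In the endoplasmic reticulum stress list 1 of 13 was called, Asns, asparagine synthetase, at 0.957, 2.45 and 2.1 against 4.75, 4.71 and 8.47 FPKM. Its log2 difference of 1.69 was no call with a pseudocount of 1 or without CSA mouse 03 (1.42) or CFA mouse 71 (1.3), and the chaperone Hspa5 was at 93.6, 111 and 68.3 against 112, 115 and 160.3 FPKM.

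Of the markers of nerve and other tissues, 0 of 7 Schwann cell genes (median 0.08) and 1 of 3 sympathetic neuron genes were called higher, and 1 of 5 platelet genes was called lower. Without CFA mouse 72 or CSA mouse 03, 1 Schwann cell gene was called higher. The Schwann cell median changed sign, to -0.23 without CFA mouse 71 and -0.3 without CSA mouse 03. Without CFA mouse 74, 2 sympathetic neuron genes were called higher, and without CFA mouse 72, 2 platelet genes were called lower. None of 5 skeletal muscle genes was called between CSA and CFA. In the fit of the 6 Ang II libraries alone, without the 2 saline mice high in these genes, 1 was called higher and 2 lower. Of 8 cell cycle inhibitors and p53 targets, 1 was called higher, Gadd45a, at 2.24, 1.98 and 1.76 against 7.34, 6.6 and 7.1 FPKM, a call lost with a pseudocount of 1, while Cdkn1a, the inhibitor p21, was at 17.9, 23.01 and 17.3 against 30.7, 28.2 and 21.6 FPKM (log2 difference 0.46).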
